A study of Homo sapiens with 10 samples.

Results

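Oxidative phosphorylation turns the energy of nutrients into ATP at the inner mitochondrial membrane. Complexes I to IV pass electrons from NADH and succinate to oxygen and, with the exception of complex II, pump protons, and complex V, the ATP synthase, lets the protons flow back to make ATP. The subunits come from 2 genomes: the mitochondrial DNA, which is transcribed from both strands as long precursors and encodes core subunits of complexes I, III, IV and V, and the nuclear DNA, which encodes all other subunits and the whole of complex II. Microglia, the macrophages of the brain parenchyma, use this machinery beside glycolysis.

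The genes described here are 42 named human subunits of the respiratory chain and ATP synthase, 13 mitochondrially encoded and 29 nuclear encoded, out of 36591 human genes in a table of 68836 human and mouse genes. They were chosen by name and not by a measured value, and the genes of the 2 genomes were kept apart. All 42 were in the table and all 42 passed the filter of at least 10 counts in at least 6 of 10 libraries, as did 15455 human genes. The table writes a dot in mitochondrial names, as in MT.ND1, which is given as MT-ND1 below.

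The data are bulk RNA sequencing of human microglia (hMG) grown from the embryonic stem cell line H9, an established human line, so that all libraries share 1 human genotype. The hMG had been transplanted at postnatal day 4 into the brains of mice that lacked Rag2, and with it T and B cells, and in which Csf1 was replaced by human CSF1, and were isolated from the mice at 6 months of age as CD11b+ and human CD45+ cells. The control group, AppHu (genotype Rag2KO-hCSF1KI-AppKI, 5 libraries numbered 3, 4, 6, 7 and 8), carried an App knock-in with a humanized amyloid-β sequence and no pathogenic mutation. The AppSAA group (genotype Rag2KO-hCSF1KI-AppSAA, 5 libraries numbered 4 to 8) carried the same humanized sequence together with the Swedish, Arctic and Austrian mutations, and develops amyloid-β pathology. Each library was 1 mouse; both sexes were used in each group, and the sex of each host is not given per library. The pups had been treated with the CSF1R inhibitor BLZ945 shortly before transplantation to remove their own microglia, and the hosts kept NK cells. Counts of 5 mouse microglial genes were still 3545 to 9975 per library.

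Human counts per library ranged from 28386080 to 38325734 in AppHu (median 32956814) and from 24165871 to 30556909 in AppSAA (median 28510903). Mouse genes took 2.12% to 4.97% of all counts. Of 12 microglial markers, P2RY12, CX3CR1, CSF1R and TMEM119 among them, all 12 were tested, 2 had a higher and 10 a lower fitted level in AppSAA, and 0 passed the threshold of an edgeR adjusted p of 0.05 (Benjamini-Hochberg). The 3 stem cell markers POU5F1, NANOG and LIN28A together had 3 to 18 counts per library, and of 4 markers of monocytes and neutrophils FCN1 had 0 counts in all 10, CCR2 5 to 65, S100A9 5 to 173 and S100A8 5 to 456. Of these 4, S100A8 and CCR2 passed the filter on counts. Their summed level was 17.2 CPM in AppSAA 4 and 1.37 to 2.89 CPM in the other 9 libraries. S100A8 was not past the threshold (log2 fold change 2.72, edgeR adjusted p = 0.31). Several measures differed between the groups beside the genes described here. The summed level of 5 markers of CNS-associated macrophages was 1943 ± 202 CPM (counts scaled to a common library total, range 1693 to 2234) in AppHu. In AppSAA it was 1448 ± 244 CPM (1109.8 to 1675) (SD, n = 5 each, as for all values with ± below). Of the 5 markers, 4 were lower in AppSAA and 0 passed the threshold in edgeR. In DESeq2 1 passed it, MRC1 (DESeq2 adjusted p = 0.036, edgeR adjusted p = 0.19). All 10 immediate early genes of a fixed list had a higher fitted level in AppSAA, and EGR1 and EGR3 were past the threshold (edgeR adjusted p = 0.033 for both). Counts of 3 mouse oligodendrocyte genes were 47845 to 103672 per library in AppHu and 15131 to 36759 in AppSAA. The part of these differences in the values below was not tested, and in bulk samples a change in the make-up of the sorted cells and a change in RNA per cell cannot be told apart.

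Neighbouring genes of the mitochondrial DNA touch or overlap, which bears on what a count of reads without strand can separate. The stretches are shown from GRCh38 on the forward strand, on which 12 of the 13 genes are coded; MT-ND6 alone is read from the reverse strand. Capitals mark the 46 bases shared by MT-ATP8 and MT-ATP6, from the start codon of MT-ATP6 to the stop codon of MT-ATP8, the 7 bases shared by MT-ND4L and MT-ND4, and, at the border of MT-ND5 and MT-ND6, the last codon of MT-ND5 followed by the last codon of MT-ND6 as it appears on the forward strand.
MT-ATP8/MT-ATP6 (chrM:8517-8582): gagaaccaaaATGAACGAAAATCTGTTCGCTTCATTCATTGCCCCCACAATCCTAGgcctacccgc
MT-ND4L/MT-ND4 (chrM:10750-10776): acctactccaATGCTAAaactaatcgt
MT-ND5/MT-ND6 (chrM:14119-14178): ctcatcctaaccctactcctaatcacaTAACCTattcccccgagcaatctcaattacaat
MT-ND5 (chrM:12337-14148, forward strand) and MT-ND6 (chrM:14149-14673, reverse strand) therefore meet tail to tail without a base between them. How reads across shared bases were assigned, and whether a strand setting was used in counting, are not stated. Adapters were ligated to fragments of double-stranded cDNA, so a read does not show the strand of its RNA. Counts of MT-ND6 and RNA of the opposite strand therefore cannot be told apart. Parts of the mitochondrial genes also have exact copies in the nuclear genome. Of all 101-base windows (the read length), 27.5% in MT-CO1, 25.8% in MT-ND2, 11.4% in MT-ATP6, 10.7% in MT-ND1, 4.39% in MT-CO3 and 2.05% in MT-CO2 occur a second time in GRCh38, mostly on chromosome 1, and 0 windows of the other 7 do. Among the nuclear genes, 11 of 29 have such windows in their GENCODE 44 canonical transcript, with the largest shares in SDHC (32.9%), NDUFV2 (18.9%) and SDHD (15.9%), so that the counts of these genes are less certain than those of the others.

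The mitochondrially encoded subunits were the more abundant of the 2 groups. In AppHu they took 1.94, 1.94, 1.81, 1.87 and 1.79% of human counts in libraries 3, 4, 6, 7 and 8, and in AppSAA 1.93, 2.19, 1.90, 1.74 and 1.89% in libraries 4 to 8. The groups overlapped, at 1.87% ± 0.0714 against 1.93% ± 0.162, and the difference of 0.0593 percentage points fell to -0.0058 without AppSAA 5, the library with the highest share. The 29 nuclear subunits together took 0.300% ± 0.0163 in AppHu and 0.295% ± 0.0130 in AppSAA. The ratio of the counts of the 13 to those of the 29 was 6.24 ± 0.381 and 6.53 ± 0.374, with ranges of 5.62 to 6.61 and 5.96 to 6.95 that overlapped.

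Per transcript length, every mitochondrial subunit lay above every nuclear one. On the scale of mean AppHu CPM per kilobase of the GENCODE 44 canonical transcript, the 13 ranged from 326 (MT-ND3) to 4578 (MT-CO1) with a median of 897, and the 29 from 5.24 (CYC1) to 282 (ATP5F1B) with a median of 67.8. MT-CO1, the catalytic subunit of complex IV, was followed by MT-CO3 (3165), MT-CO2 (1809), MT-ATP6 (1809), MT-CYB (1761) and MT-ND4 (1178), and MT-CO2, MT-ATP6 and MT-CYB lay within 1 SD of each other. MT-CO1 alone held 37.6% ± 1.53 of the counts of the 13 in AppHu and 38.4% ± 0.704 in AppSAA. MT-ND6, the gene of the other strand, was at 897 CPM per kilobase, close to MT-ND5 (844), and its counts can hold RNA of the forward strand. Among the nuclear subunits the catalytic β subunit ATP5F1B was followed by COX4I1 (164), ATP5F1C (153) and NDUFB8 (142), whereas NDUFA9 (10.2), UQCRB (6.82), NDUFS1 (5.95) and CYC1 were lowest. For UQCRB, NDUFA9 and NDUFS1 the canonical transcript is 8459, 8356 and 11660 bases long, against 678 for NDUFB8, and their place in this order depends on that choice of transcript.

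**Figure D1:**
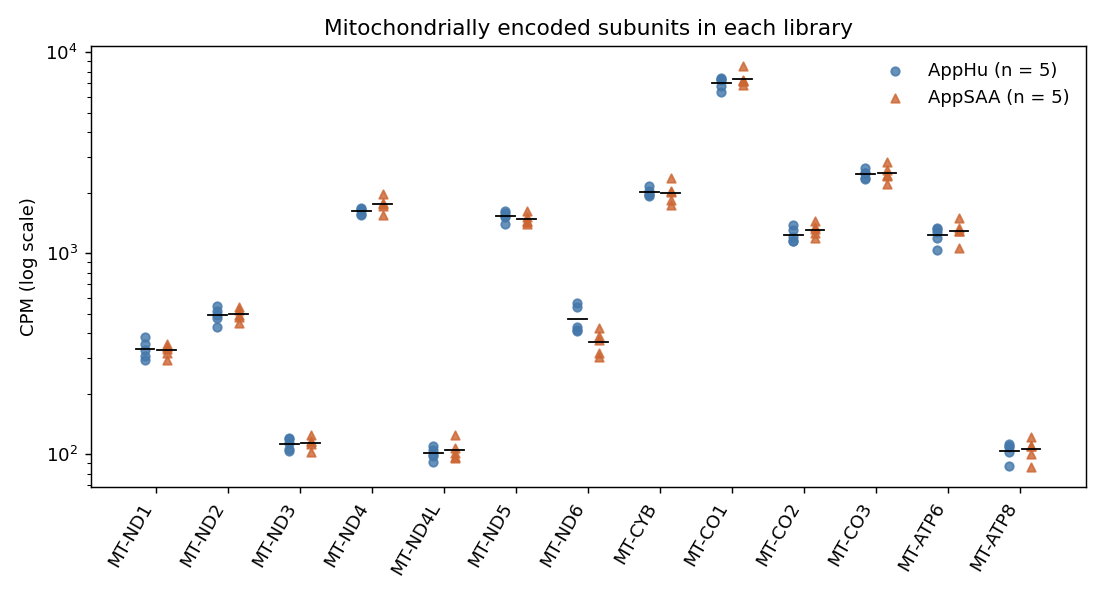
Level of each mitochondrially encoded subunit in each library, in CPM on a log axis. Circles are AppHu, triangles AppSAA (n = 5 each) and the black lines group means. The groups overlap for all 13 genes, and MT-ND6 is the one whose means differ most as a ratio (471 and 361 CPM).

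The comparison of AppSAA with AppHu asks whether hMG that meet amyloid-β pathology express the subunits at another level. Of the 42 subunits, 0 passed the threshold in edgeR, where 12 of 15455 human genes, or 0.0776%, did. DESeq2, the tool of the study, also called 0 of the 42, against 215 human genes or 1.39%. At an unadjusted p under 0.05 edgeR gave 2 of the 42 (4.76%), MT-ND6 and NDUFA9, where 9.8% of all genes tested were under it. For 0 of the 42 did the CPM of the groups not overlap, while 2.49% of all genes tested had groups apart. With 42 genes, a share of 0.0776% comes to less than 1 gene, and shares of 1.39% and 2.49% to hardly any. These counts of 0 by themselves therefore say little.

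The estimates were precise, so that the size of change the data allow can be given. The 95% interval of the log2 fold change stayed within 0.5 in both directions for 39 of the 42 subunits (92.9%), and within 0.25 for 30, whereas the first held for 53.9% of all genes tested. The median SE was 0.0746 over the subunits and 0.146 over all genes. All genes tested include those just past the filter on counts and were not matched to the subunits for level. The greater precision is therefore not shown to be particular to the subunits. The 3 subunits whose interval reached further were MT-ND6, CYC1 and COX5A. The mitochondrial subunits had log2 fold changes with a median of 0.017 (9 above and 4 below 0), and the nuclear ones with a median of -0.042 (10 above and 19 below 0), beside 0.00182 over all genes. The first median lay between -0.035 and 0.0517 under all other settings tried and changed sign in 7 of 24. Of these 24, 1 scaled by the counts of the 13 mitochondrial subunits themselves (median -0.016), which holds their median near 0 by construction. The second median, for which 23 settings were run, lay between -0.0904 and 0.00242 and was above 0 in 1, without AppSAA 8.

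**Figure D2:**
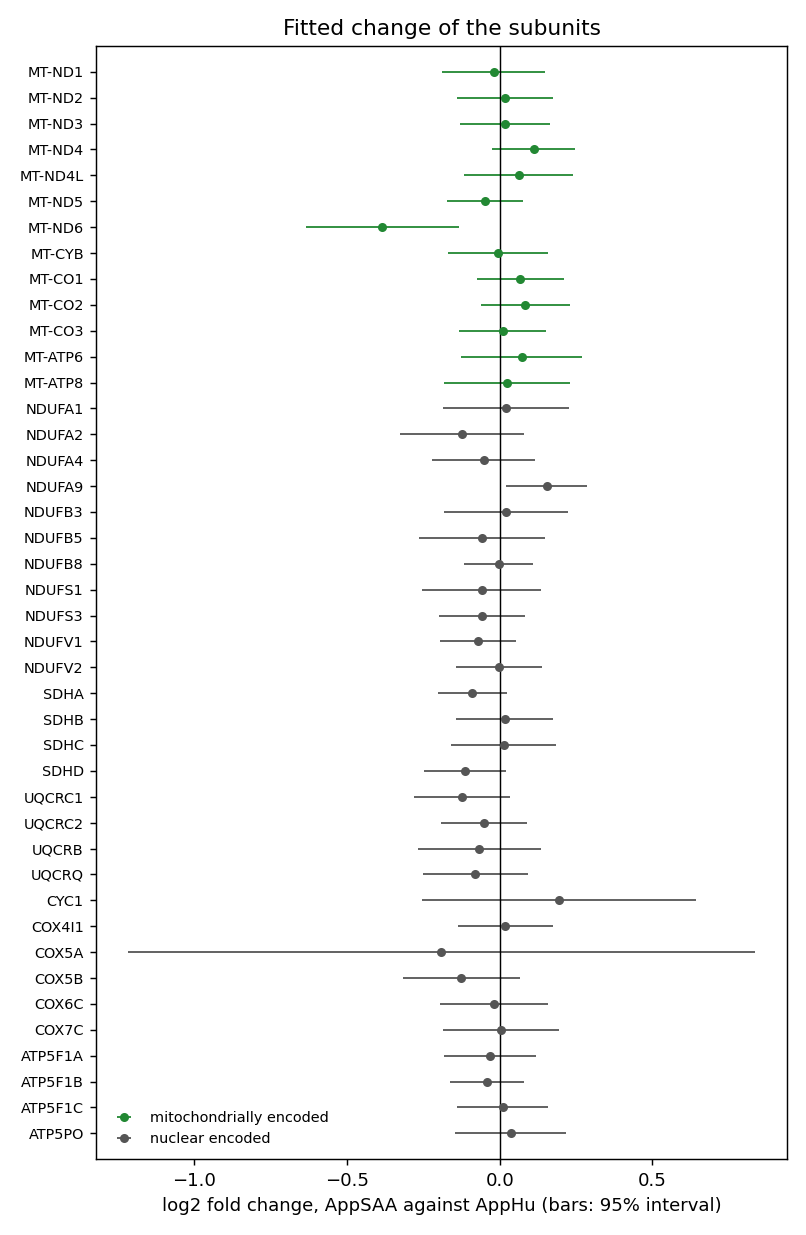
Fitted log2 fold change of AppSAA against AppHu for the 42 subunits (edgeR, 5 libraries a group), with bars for the 95% interval. The intervals of 40 subunits include 0; those of MT-ND6 and NDUFA9 do not, and COX5A and CYC1 have the widest bars.

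Among the 7 mitochondrial subunits of complex I, which form most of its proton-pumping membrane arm, MT-ND6 had the smallest p of all 42. MT-ND6 measured 428, 414, 411, 539 and 563 CPM in AppHu 3, 4, 6, 7 and 8 and 319, 369, 387, 426 and 303 CPM in AppSAA 4, 5, 6, 7 and 8. All 5 AppSAA libraries lay below the AppHu mean, but AppSAA 7 exceeded AppHu 4 and 6, and AppHu 7 and 8 stood above the other AppHu libraries. In edgeR the level was lower in AppSAA without passing the threshold (log2 fold change -0.38, SE 0.115, 95% interval -0.63 to -0.13, unadjusted p = 0.0056, edgeR adjusted p = 0.25; DESeq2 adjusted p = 0.10). The fold change stayed negative under all 24 other settings, between -0.49 and -0.21, the latter without AppHu 7 and 8. Its adjusted p ranged from 0.0923, with the main axis of variation between libraries as a covariate, to 0.57, without AppHu 7 and 8. Both settings were chosen after seeing the data. The covariate was computed from the same counts, so that its fit understates the error.

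Relative to the gene it meets tail to tail, MT-ND6 had 27.0, 27.3, 29.4, 35.3 and 34.8 counts per 100 counts of MT-ND5 in AppHu 3, 4, 6, 7 and 8 and 22.3, 22.7, 25.7, 29.6 and 21.7 in AppSAA 4 to 8. The groups (30.8 ± 4.00 and 24.4 ± 3.27) overlapped through AppSAA 7, which lay above AppHu 3, 4 and 6. Of all counts of the 13 genes MT-ND6 took 2.52% ± 0.451 in AppHu and 1.89% ± 0.342 in AppSAA. In the mouse RNA of the same libraries, mt-Nd6 had 40.6 ± 2.63 and 39.3 ± 5.79 counts per 100 of mt-Nd5. The difference between the human and the mouse ratio was not tested. Reads do not show the strand, so counts on MT-ND6 can hold RNA of the forward strand in these ratios as well.

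**Figure D3:**
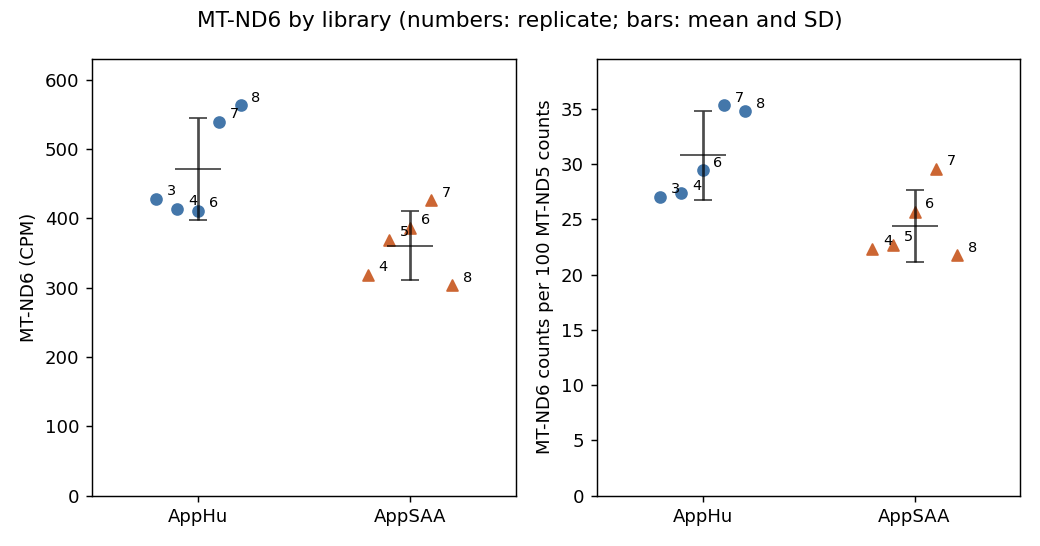
MT-ND6 in each library, on the left in CPM and on the right as counts per 100 counts of MT-ND5. Numbers beside the points are the replicate numbers, and the bars show mean and SD (n = 5 each). On both scales AppHu 7 and 8 are highest and AppSAA 7 lies among the AppHu libraries.

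MT-ND4 was the mitochondrial subunit with the smallest p among those higher in AppSAA. It measured 1679.9, 1649, 1667, 1552 and 1566 CPM in AppHu 3, 4, 6, 7 and 8 and 1782, 1972, 1715, 1541 and 1751 CPM in AppSAA 4, 5, 6, 7 and 8. Of the AppSAA libraries, 4 lay above every AppHu library and AppSAA 7 below all of them (log2 fold change 0.11, SE 0.0622, 95% interval -0.024 to 0.25, unadjusted p = 0.099, edgeR adjusted p = 0.62). MT-ND5, another subunit of the membrane arm, measured 1584, 1515, 1396, 1527 and 1619.8 CPM in AppHu 3, 4, 6, 7 and 8 and 1429, 1626, 1506, 1441 and 1395 CPM in AppSAA 4, 5, 6, 7 and 8, and its groups overlapped widely (log2 fold change -0.047, SE 0.0573, 95% interval -0.17 to 0.077, unadjusted p = 0.43, edgeR adjusted p = 0.86). MT-ND1, which lies where ubiquinone binds, had 334 ± 35.6 CPM in AppHu and 329 ± 22.8 CPM in AppSAA (log2 fold change -0.02, SE 0.0780, 95% interval -0.19 to 0.15, unadjusted p = 0.80, edgeR adjusted p = 0.97), with 355, 329, 382, 294 and 308 CPM in AppHu 3, 4, 6, 7 and 8 and 319, 354, 343, 295 and 336 CPM in AppSAA 4, 5, 6, 7 and 8. The highest AppHu library of MT-ND1 was number 6 and the lowest number 7, a range that enclosed all AppSAA libraries. MT-ND2 (log2 fold change 0.017), MT-ND3 (0.016) and MT-ND4L (0.063) had adjusted p-values of at least 0.87.

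For MT-CYB, the mitochondrial subunit of complex III, levels were 2009 ± 98.8 CPM in AppHu and 2002 ± 242 CPM in AppSAA, a log2 fold change of -0.0055 (SE 0.0761). The 3 mitochondrial subunits of complex IV had fitted values slightly above 0. MT-CO1 measured 7365, 7472, 6360.3, 7286 and 6811 CPM in AppHu 3, 4, 6, 7 and 8 and 7154, 8538, 7254, 6861 and 7171 CPM in AppSAA 4, 5, 6, 7 and 8. AppSAA 5 was the highest library and AppHu 6 the lowest, while the other 8 intermingled (log2 fold change 0.067, SE 0.0660, 95% interval -0.076 to 0.21, unadjusted p = 0.33, edgeR adjusted p = 0.82). Without these 2 libraries the fold change of MT-CO1 was -0.028. MT-CO2, which takes electrons from cytochrome c, measured 1376, 1302, 1149, 1150.4 and 1211 CPM in AppHu 3, 4, 6, 7 and 8 and 1344, 1449, 1316, 1191 and 1260.1 CPM in AppSAA 4, 5, 6, 7 and 8, with overlapping groups (log2 fold change 0.084, SE 0.0678, 95% interval -0.063 to 0.23, unadjusted p = 0.24, edgeR adjusted p = 0.77). MT-CO3 had 2481 ± 124 CPM in AppHu and 2497 ± 235 CPM in AppSAA (log2 fold change 0.0091). Of complex V, MT-ATP6, part of the proton channel, had 1232 ± 123 CPM in AppHu and 1295 ± 157 CPM in AppSAA (log2 fold change 0.072), and MT-ATP8 104 ± 9.82 CPM in AppHu and 106 ± 13.3 CPM in AppSAA (0.024), both with the reservation that they share 46 bases.

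A single library set the upper end of most of these genes. AppSAA 5 was the highest of the 10 libraries for 10 of the 13 mitochondrial subunits, and AppSAA 7 the lowest for 5. Within groups the CV of the 13 ranged from 3.68% (MT-ND4) to 15.7% (MT-ND6) in AppHu and from 6.16% (MT-ND5) to 13.9% (MT-ND6) in AppSAA, so that MT-ND6 was the most variable in both.

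**Figure D4:**
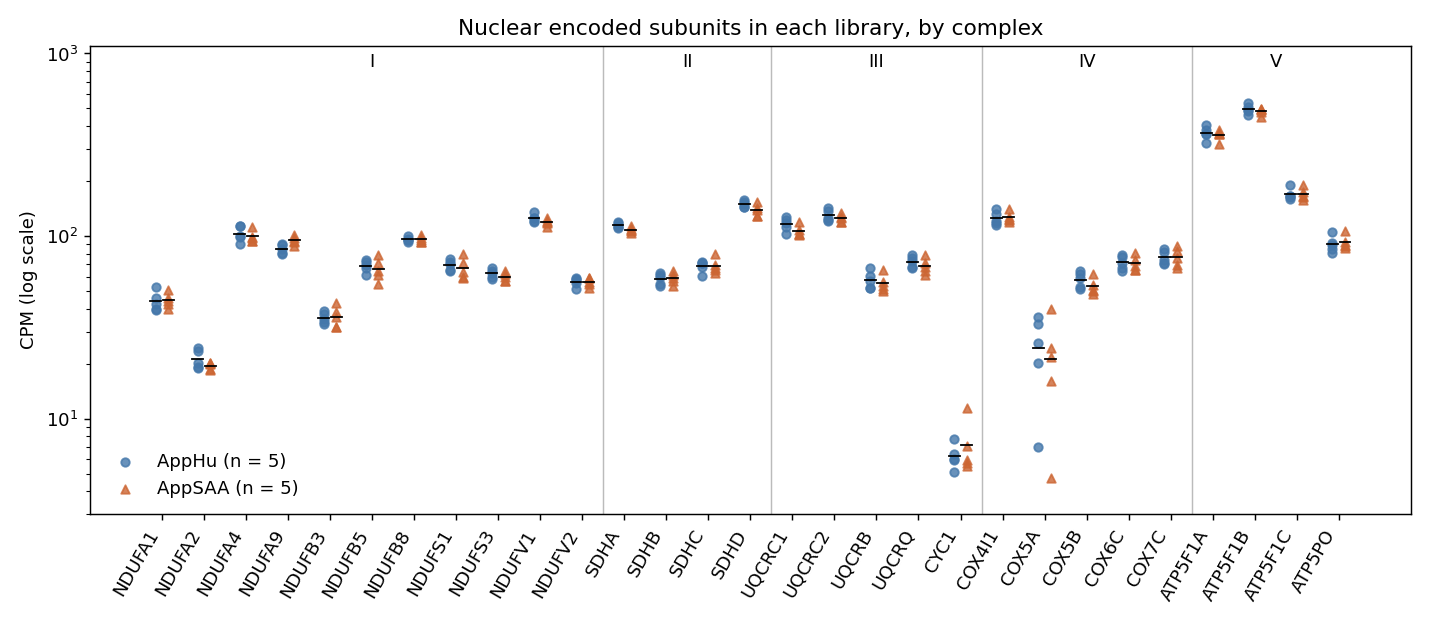
Level of each nuclear encoded subunit in each library, in CPM on a log axis, with complexes I to V separated by vertical lines. Circles are AppHu, triangles AppSAA (n = 5 each) and the black lines group means. Most genes vary little between libraries, while COX5A spreads from 4.71 to 39.8 CPM and CYC1 lies lowest.

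The 11 nuclear subunits grouped here with complex I include NDUFA4. Of the 11, 3 had a higher and 8 a lower fitted level in AppSAA, with a median log2 fold change of -0.053. NDUFA9, an accessory subunit near the ubiquinone site, was the one with the smallest p, and measured 89.0, 81.1, 85.3, 80.0 and 90.6 CPM in AppHu 3, 4, 6, 7 and 8 and 97.7, 93.4, 101, 93.0 and 88.5 CPM in AppSAA 4, 5, 6, 7 and 8. The lowest AppSAA library, number 8, lay among the AppHu libraries and the other 4 above all of them (log2 fold change 0.15, SE 0.0612, 95% interval 0.021 to 0.29, unadjusted p = 0.026, edgeR adjusted p = 0.43; DESeq2 adjusted p = 0.35). For NDUFA9 the fold change stayed positive under all other settings, from 0.0703 with the human library total as covariate (edgeR adjusted p = 0.87) to 0.178 without AppSAA 8. The core subunits NDUFS1, NDUFV1 and NDUFV2, which carry the electrons from NADH over iron-sulphur clusters, and NDUFS3 had log2 fold changes of -0.059, -0.072, -0.0034 and -0.058. For the accessory subunits NDUFA1, NDUFB3, NDUFB5 and NDUFB8 they were 0.022, 0.02, -0.059 and -0.0039. NDUFA2 had 21.2 ± 2.48 CPM in AppHu and 19.5 ± 0.808 CPM in AppSAA (log2 fold change -0.12, edgeR adjusted p = 0.74). NDUFA4, grouped here with complex I by its name, is now known as a subunit of complex IV, and had 103 ± 9.82 CPM in AppHu and 99.5 ± 7.67 CPM in AppSAA (-0.053).

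Complex II, succinate dehydrogenase, is coded by 4 nuclear genes, of which 2 had a higher and 2 a lower fitted level. SDHA, which binds the flavin and oxidizes succinate, measured 119, 114, 111, 113 and 118 CPM in AppHu 3, 4, 6, 7 and 8 and 108, 113, 110.0, 106 and 103 CPM in AppSAA 4, 5, 6, 7 and 8, so that 4 AppSAA libraries lay below every AppHu library and AppSAA 5 above AppHu 6 and 7 (log2 fold change -0.09, SE 0.0519, 95% interval -0.20 to 0.023, unadjusted p = 0.11, edgeR adjusted p = 0.64). SDHD, a membrane anchor, measured 158, 149.6, 153, 144 and 144 CPM in AppHu 3, 4, 6, 7 and 8 and 129, 153, 143, 138 and 129 CPM in AppSAA 4, 5, 6, 7 and 8. Of the AppSAA libraries, 4 lay below all AppHu libraries and AppSAA 5 among them (log2 fold change -0.11, SE 0.0617, 95% interval -0.25 to 0.021, unadjusted p = 0.091, edgeR adjusted p = 0.61). The iron-sulphur subunit SDHB and the other anchor SDHC had log2 fold changes of 0.016 and 0.012.

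Complex III takes electrons from ubiquinol to cytochrome c. Its core subunit UQCRC1 measured 122, 112, 127, 103 and 118 CPM in AppHu 3, 4, 6, 7 and 8 and 103, 119.9, 103, 108 and 101 CPM in AppSAA 4, 5, 6, 7 and 8, with overlapping groups (log2 fold change -0.12, SE 0.0725, 95% interval -0.28 to 0.034, unadjusted p = 0.11, edgeR adjusted p = 0.64). UQCRC2, UQCRB and UQCRQ had log2 fold changes of -0.052, -0.068 and -0.08. CYC1, cytochrome c1, had the lowest mean level of the 42, with 136 to 349 counts per library, and measured 5.11, 6.02, 5.95, 7.73 and 6.39 CPM in AppHu 3, 4, 6, 7 and 8 and 5.96, 5.47, 5.70, 11.5 and 7.08 CPM in AppSAA 4, 5, 6, 7 and 8. Its largest value was that of AppSAA 7, and the other AppSAA libraries lay within the range of AppHu (log2 fold change 0.20, SE 0.207, 95% interval -0.25 to 0.64, unadjusted p = 0.36, edgeR adjusted p = 0.83). Without AppSAA 7 the fold change of CYC1 was -0.043.

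The nuclear subunits grouped here with complex IV were 5, without NDUFA4. COX4I1, the largest of these 5 in the complex, had 125 ± 10.8 CPM in AppHu and 127 ± 8.49 CPM in AppSAA (log2 fold change 0.018). COX5B had 57.8 ± 5.55 CPM in AppHu and 53.0 ± 5.48 CPM in AppSAA (-0.13), and COX6C and COX7C had log2 fold changes of -0.02 and 0.0035. COX5A, chosen for description after its values were seen, differed from all others in its spread. It measured 20.1, 26.0, 7.02, 35.9 and 32.8 CPM in AppHu 3, 4, 6, 7 and 8 and 21.6, 4.71, 16.0, 39.8 and 24.4 CPM in AppSAA 4, 5, 6, 7 and 8. The lowest libraries were AppSAA 5 and AppHu 6, and the highest AppSAA 7 and AppHu 7, so that both groups held low and high libraries. The CV of COX5A was 47.1% in AppHu and 60.1% in AppSAA, and that of CYC1 15.3% and 34.9%. The largest over the other nuclear subunits was 12.2% and 14.0%. The data say little about a change of COX5A between the groups (log2 fold change -0.19, SE 0.474, 95% interval -1.22 to 0.84, unadjusted p = 0.69, edgeR adjusted p = 0.94), since its interval runs from 0.430 to 1.79 times the AppHu level.

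COX5A shared this order of libraries with many genes outside the pathway. Of 8694 other genes at 10 CPM or more, those whose deviations from the group means were most like those of COX5A, by Pearson's r over the 10 libraries, were SURF6, ALDH2, CYBA, KAT2A and LTBR (r between 0.995 and 0.997, given as the measure of choice without a test). CYBA, the p22phox subunit of the NADPH oxidase, ranged from 29.9 CPM in AppSAA 5 to 407 CPM in AppSAA 7, and ALDH2, a mitochondrial aldehyde dehydrogenase, from 101 CPM in AppSAA 5 to 375 CPM in AppHu 7. The first principal component of such deviations over the 15413 tested genes that are not among the 42 held 26.6% of their variance, with AppSAA 5 (-0.69) and AppHu 6 (-0.43) at one end and AppSAA 7 (0.41) at the other. Most of the other subunits ran opposite to COX5A: by the same measure r was negative for 12 of the 13 mitochondrial ones (median -0.733, with MT-ND6 the exception at 0.345) and for 26 of the 27 nuclear ones at 10 CPM or more (median -0.703, with NDUFS1 the exception at 0.0578), given as a description. The share of negative r among the 8694 genes compared is not given here. The opposite course is therefore not shown to be particular to the subunits. Among the subunits the lowest r was that of ATP5PO, the stalk subunit OSCP of complex V. ATP5PO had its highest values in AppSAA 5 (106 CPM) and AppHu 6 (105 CPM). What sets this axis was not tested.

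**Figure D5:**
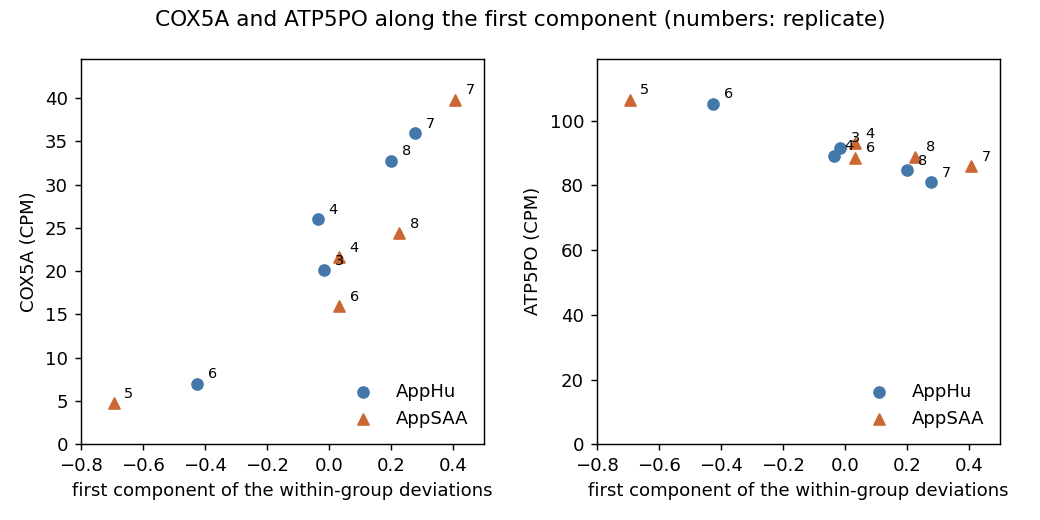
COX5A (left) and ATP5PO (right) in CPM, against the position of each library on the first component of the within-group deviations of genes outside the 42, in units of its loading. Circles are AppHu and triangles AppSAA, with replicate numbers; AppSAA 5 and AppHu 6 lie apart on the left, low in COX5A and high in ATP5PO, while the groups are mixed along the axis.

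With this component as a covariate edgeR called 179 human genes and 0 of the 42 subunits. The SE of COX5A was then 0.133 and its log2 fold change -0.32 (edgeR adjusted p = 0.29). Since the component was computed from the same counts, its fit understates the error. Without AppHu 6 and AppSAA 5, edgeR called 62 human genes and again 0 of the 42.

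The 4 nuclear subunits of complex V held the nuclear subunit with the highest level. ATP5F1B had 495 ± 30.0 CPM in AppHu and 481 ± 20.2 CPM in AppSAA (log2 fold change -0.042, SE 0.0560), the α subunit ATP5F1A 367 ± 31.0 CPM in AppHu and 359 ± 23.1 CPM in AppSAA (-0.03), and the central stalk subunit ATP5F1C 169 ± 12.2 CPM in AppHu and 170.0 ± 12.3 CPM in AppSAA (0.009). ATP5PO had 90.3 ± 9.33 CPM in AppHu and 92.5 ± 8.18 CPM in AppSAA, with 91.6, 89.1, 105, 80.9 and 84.6 CPM in AppHu 3, 4, 6, 7 and 8 and 93.1, 106, 88.5, 85.8 and 88.8 CPM in AppSAA 4, 5, 6, 7 and 8 (log2 fold change 0.035, SE 0.0832, 95% interval -0.15 to 0.22, unadjusted p = 0.68, edgeR adjusted p = 0.94), a direction that turned without AppSAA 5 (-0.024). Over the 29 nuclear subunits, AppHu 6 and AppSAA 5 were each the highest library for 10 genes and AppSAA 8 the lowest for 10.

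The other genes of the pathway gave a like picture. Of 49 further nuclear subunits of complexes I, III, IV and V, 12 had a higher and 37 a lower fitted level in AppSAA, with a median log2 fold change of -0.043, and 0 passed the threshold in edgeR or DESeq2. Over all genes tested, 7801 were higher and 7654 lower. At an unadjusted p under 0.05 edgeR gave 1 of the 49 (2.04%), against 9.8% of all genes tested. All 13 of the 49 that belong to complex V had a negative log2 fold change (-0.41 to -0.0060), and 0 of the 13 had an unadjusted p under 0.05. The fitted values of these genes share libraries and scaling and are not 13 separate findings. The smallest p of the 49 was that of NDUFB10, an accessory subunit of complex I (22.3 ± 2.17 CPM in AppHu and 18.8 ± 2.32 CPM in AppSAA; log2 fold change -0.25, SE 0.107, 95% interval -0.48 to -0.014, unadjusted p = 0.04, edgeR adjusted p = 0.48). Of the others named by the same rule, NDUFS4 (0.11), NDUFA10 (0.069) and ATP5F1D (-0.41, at 2.77 CPM in AppHu) had edgeR adjusted p-values of at least 0.59. Cytochrome c (CYCS) had 61.4 ± 2.95 CPM in AppHu and 66.0 ± 4.49 CPM in AppSAA (edgeR adjusted p = 0.66), and the ATP synthase inhibitor ATP5IF1 a log2 fold change of 0.0046 and DMAC2L of -0.057. The tissue-specific isoforms NDUFA4L2, COX4I2, COX6A2, COX6B2, COX7A1 and COX8C had at most 7 counts in any library and were not tested.

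Of 50 tested assembly factors, 24 were higher and 26 lower in AppSAA and 0 past the threshold. COA7, an assembly factor of complex IV, had the smallest p (19.7 ± 1.49 CPM in AppHu and 16.2 ± 1.63 CPM in AppSAA; log2 fold change -0.28, SE 0.0970, 95% interval -0.49 to -0.066, unadjusted p = 0.014, edgeR adjusted p = 0.34), ahead of SDHAF4 (-0.24), TMEM126A (0.19) and ATPAF1 (0.12). Of 25 genes for transcription, processing and stability of mitochondrial RNA, 10 were higher and 15 lower and 0 past the threshold. TFAM, which packages and transcribes mitochondrial DNA, had a log2 fold change of 0.13 (edgeR adjusted p = 0.60), FASTKD3 of 0.15, FASTK of -0.24, and TRMT10C, a subunit of the mitochondrial RNase P, of -0.18 (edgeR adjusted p = 0.49). Of 8 nuclear regulators of the pathway, 5 were higher and 3 lower, 0 past the threshold. GABPB2, a β subunit that pairs with the ETS factor GABPA, had 37.9, 42.02, 41.5, 45.7 and 34.4 CPM in AppHu 3, 4, 6, 7 and 8 and 47.7, 47.4, 47.3, 48.3 and 50.1 CPM in AppSAA 4, 5, 6, 7 and 8, and every AppSAA library lay above every AppHu library, as groups lay apart for 2.49% of all genes tested (log2 fold change 0.26, SE 0.0787, 95% interval 0.085 to 0.43, unadjusted p = 0.0066, edgeR adjusted p = 0.27). ESRRA (0.18), YY1 (-0.19) and NRF1 (-0.12) had edgeR adjusted p-values of at least 0.63.

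Some of the nuclear subunits have promoter letters known as sites of these regulators. Of the 29, 22 were matched by symbol to a RefSeq promoter window of 250 bases before and 50 after the start (GRCh38.p14). On either strand, the NRF1 core GCGCATGC was in 4 of the 22 (18.2%) and in 3.27% of all 27305 promoters, the GABPA core CCGGAAGT in 4 (18.2% against 4.44%), and the YY1 core AAGATGGCG in 3 (13.6% against 1.85%). In the promoters of 42 of the further nuclear subunits the shares were 21.4% for NRF1, 14.3% for GABPA and 11.9% for YY1. These shares are therefore not particular to the 22. The NRF1 core overlaps its own reverse complement by 6 bases, so some sites match on both strands. At least 1 of these was in 8 of the 22 (36.4%) against 8.90% of all, and the other 14 held none. A few windows wholly before the start are shown as examples, with the match in capitals; a match is a description of letters, not of binding.
SDHD NRF1 (GRCh38.p14, chr11:112086748-112086785, forward strand): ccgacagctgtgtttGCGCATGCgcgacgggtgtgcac
SDHD GABPA (GRCh38.p14, chr11:112086780-112086817, forward strand): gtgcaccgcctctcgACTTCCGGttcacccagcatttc
SDHB NRF1 (GRCh38.p14, chr1:17054210-17054247, reverse strand): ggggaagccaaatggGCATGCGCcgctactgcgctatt
UQCRQ GABPA (GRCh38.p14, chr5:132866573-132866610, forward strand): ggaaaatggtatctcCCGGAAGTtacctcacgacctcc
NDUFS1 GABPA (GRCh38.p14, chr2:206159580-206159617, reverse strand): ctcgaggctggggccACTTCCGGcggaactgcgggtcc
SDHD, with a core of NRF1 and one of GABPA at positions -110 and -78 from its start, and SDHB, UQCRQ and NDUFS1 were all without a call in the comparison of the groups.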

How the data were processed

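Full-length cDNA (SMART-Seq HT PLUS) from the sorted hMG of 5 AppHu and 5 AppSAA mice was sequenced as single reads of 101 bases. Per the labels and the study's methods, the authors aligned reads to a combined mm10 and GRCh38 database with STAR 2.7.11a, checked them with FastQC 0.11.9 and counted them per gene with featureCounts 2.0.1. The deposited values are whole-number counts without normalization. Annotation release, strand setting and treatment of multiply mapped reads are not given in the sources used here; 0 columns were unmatched to a sample. Reads carry no molecular identifiers.

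From these, the 15455 human genes that reached 10 counts in 6 or more libraries were fitted in edgeR 4.0.16 (R 4.3.3; TMM, estimateDisp, legacy glmQLFit, glmQLFTest; no covariate) with Benjamini-Hochberg adjustment over all of them and a threshold of 0.05. DESeq2 1.42.0 was an alternative. SEs were derived from each fold change and F, and CPM are scaled by TMM. P-values measure the spread between mice. The code was tested on simulated data. Replicates were compared for duplicates, and all pairs differed beyond sampling noise.

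The 42 subunits and all lists were chosen with earlier results of these data known. Text names all 42, gives every library for the 3 with the smallest p per direction and genome, and of other lists the 2 with the smallest p per direction; exceptions are said in place. The table's ATP5MPL and ATP5MD are the older symbols of ATP5MJ and ATP5MK. Positions are from GENCODE 44 (GRCh38), which may not be the release counted on. The 2 mitochondrial rRNA genes were not analysed here. Alternatives were other size factors, filters, covariates, the replicate number as a block, and libraries left out.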

Additional observations from a re-analysis of the deposited data

Results flagged for a closer look

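In each of the 84 sets of 5 libraries (42 subunits in 2 groups), the distance of the highest or lowest library from its neighbour was compared with the range of the group by Dixon's test, which chance passes in about 1 of 20 sets. It was passed in 4 of 84 (4.76%). MT-CO1 in AppSAA 5 was at 8538 CPM where the other AppSAA libraries lay between 6861 and 7254 CPM. NDUFA4 in the same library was at 113 CPM, with the others between 93.9 and 99.0 CPM. CYC1 in AppSAA 7 was at 11.5 CPM and the others between 5.47 and 7.08 CPM. ATP5F1C in AppHu 3 was at 190.4 CPM and the others between 160.0 and 166 CPM.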

How the results depend on the processing

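All 24 other settings kept 0 of the 42 subunits past the threshold. The number of human genes past it moved from 12 to 215 with DESeq2, 32 with no filter on low counts, 1 with the human library total and 5 with the mouse share as covariate, and, in settings chosen after seeing the data, to 179 with the first component as covariate, 4 without AppHu 7 and 8 and 62 without AppHu 6 and AppSAA 5. With 1 library left out it lay between 2 (without AppHu 3, AppHu 7 or AppSAA 8) and 33 (without AppSAA 5). Replicate numbers 4, 6, 7 and 8 occur in both groups. Deviations of same-numbered libraries correlated by 0.0608, 0.0315, 0.182 and 0.111, and those of differently numbered ones by -0.236 to 0.267. The main fit took no pairs, and these values do not settle whether the numbers mark pairs. A replicate block gave 59 human genes. MT-ND1 turned to 0.0220 with the mouse share and 0.00294 without AppHu 6 and AppSAA 5, and lay between -0.0624 and 0.0327 with 1 library left out. MT-CO1 turned to -0.0281 without AppHu 6 and AppSAA 5. CYC1 lay between -0.0428 and 0.284 with 1 library left out. ATP5PO turned to -0.00757 with the replicate block and -0.0430 without AppHu 7 and 8, and lay between -0.0235 and 0.0961 with 1 library left out. COX5A turned to 0.0396 with the library total, 0.128 with the replicate block and 0.269 without AppHu 7 and 8, and lay between -0.544 and 0.0614 with 1 library left out. The causes of these moves were not tested. The planned share without the mitochondrial rRNA genes was not run, since the counts used here hold 0 of these 2 genes. Counts of at least 2556 per library for the mitochondrial subunits leave little counting error; it is largest for COX5A in AppSAA 5 (124 counts) and, in the other 9 libraries, for CYC1 (136 to 349).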

Other observations

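The mouse counterparts of the mitochondrial subunits, counted in the same libraries from RNA of host cells, fell into 2 classes. Mouse mt-Nd1, mt-Nd2, mt-Co1, mt-Nd4, mt-Nd5, mt-Nd6 and mt-Cytb had between 246 and 7366 counts per library. For mt-Co2, mt-Atp8, mt-Co3 and mt-Nd4l there were 0 counts in all 10 libraries, for mt-Atp6 at most 2 and for mt-Nd3 at most 4. The 6 genes at or near 0 stand next to each other on the mouse mitochondrial DNA. The human counterparts all had at least 2556 counts. A total over the mouse mitochondrial genes therefore leaves these 6 out: it was 1.36% ± 0.183 of mouse counts in AppHu and 1.61% ± 0.149 in AppSAA, with overlapping ranges (1.19% to 1.67% and 1.47% to 1.84%).

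MT-ND5 relative to MT-ND4, both of complex I and of the same strand, was 94.4 ± 7.39 counts per 100 in AppHu and 84.7 ± 5.89 in AppSAA. The ranges overlapped, since AppHu 6 (83.7) lay among the AppSAA libraries and AppSAA 7 (93.5) among the AppHu ones. This ratio was noticed in these data and was not tested.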
